A study of Mus musculus with 18 samples.

Results

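The 10 genes described here are the EGF family ligands Areg, Ereg, Hbegf, Tgfa, Btc, and Epgn, the ERBB receptors Egfr, Erbb2, and Erbb3, and Errfi1, which encodes an inhibitor of EGFR. They were chosen by the strong rise of Areg with FGF6 in these libraries, and their rows were found by gene symbol among the 48023 genes of the count table. Of the 10, 9 passed the filter on low counts that left 15071 genes for testing, and Epgn did not. The samples were immortalized murine brown preadipocytes, precursors of brown fat cells kept as 1 permanent line that was made from the stromal-vascular cells of brown fat. They received vehicle (Veh) or FGF6, a secreted fibroblast growth factor, at 200 ng/ml for 4, 8, or 24 h, which gave 6 groups of 3 libraries. As far as the labels tell, the groups differ in treatment and time alone. Nothing states that the libraries came from separate cultures, so p-values measure the spread between these libraries, which may be technical. Library totals ranged from 24327816 to 33471980 counts.

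EGF family ligands are made as precursors anchored in the cell membrane, and metalloproteases such as Adam17 and Adam10 cut them free. A ligand bound to EGFR makes the receptor pair with itself or with another ERBB receptor, and the pair signals through RAS and the ERK kinases. AREG binds EGFR, whereas EREG, HBEGF, and BTC also bind ERBB4. ERBB2 has no known ligand of its own and acts as the partner of the other receptors, and ERBB3 binds neuregulins. Areg, Ereg, Hbegf, and Errfi1 are known in many cell types as genes switched on by growth factors acting through ERK, and ERRFI1 closes a loop by binding the EGFR kinase.

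The ligands share the EGF motif, with cysteines that pair into disulfide bonds, and it is shown for 5 of them because it is what makes them one family. A search of GENCODE M21 coding sequences found 1 motif of 36 codons in each, with 7, 4, 10, 1, and 8 codons between successive cysteine codons in all 5 genes. The search itself set the spacings of 7, 1, and 8, so only those of 4 and 10 could have differed between genes. In GRCm38 the motif of Areg (codons 139.0 to 174.0 of 248) lies at chr5:91143614.0-91144364.0, that of Ereg (codons 61.0 to 96.0 of 162) at chr5:91088496.0-91089111.0, and that of Btc (codons 69.0 to 104.0 of 177) at chr5:91362421.0-91366197.0. That of Tgfa (codons 46.0 to 81.0 of 159) lies at chr6:86263200.0-86269960.0, and that of Epgn (codons 59.0 to 94.0 of 152) at chr5:91031152.0-91032237.0. Btc is on the minus strand and the other 4 genes on the plus strand, and each motif is split over 2 coding exons. The coding bases are given 5′ to 3′ with the intron removed, and the capitals mark the 6 cysteine codons.
Areg: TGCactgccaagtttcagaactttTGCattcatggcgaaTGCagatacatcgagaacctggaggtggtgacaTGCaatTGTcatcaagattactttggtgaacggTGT
Ereg: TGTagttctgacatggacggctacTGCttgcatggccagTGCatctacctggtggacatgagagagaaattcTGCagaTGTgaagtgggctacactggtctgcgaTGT
Btc: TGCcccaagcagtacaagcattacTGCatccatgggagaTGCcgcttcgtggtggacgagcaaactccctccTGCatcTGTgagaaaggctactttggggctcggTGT
Tgfa: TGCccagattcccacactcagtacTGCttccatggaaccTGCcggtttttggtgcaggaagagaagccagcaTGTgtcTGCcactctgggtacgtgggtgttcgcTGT
Epgn: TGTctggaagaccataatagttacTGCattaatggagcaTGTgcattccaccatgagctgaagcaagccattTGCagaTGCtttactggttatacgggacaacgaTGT
Hbegf was left out of this comparison. Among the 5 motifs shown, over 108 bases, Tgfa and Btc were the most alike pair with 62% identical bases, Ereg and Tgfa were the least alike with 45.4%, and Areg was closest to Btc of these with 57.4%.

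RefSeq promoters (GRCm38.p6), of which the 250 bases before the transcription start were searched, were at hand for 7 of the 10 genes. Ereg, Hbegf, and Erbb3 had no entry. The entry of Areg and 1 of the 2 entries of Errfi1 are shown because they hold a complete cyclic AMP response element (CRE), TGACGTCA, and both genes were higher with FGF6 at every time. The Areg window is chr5:91139349-91139598 and the Errfi1 window chr4:150854820-150855069, both on the plus strand. The Errfi1 window shown lies inside the gene as GENCODE annotates it, which starts at 150853919. The other entry of Errfi1, chr4:150853546-150853795, lies before that start and holds neither the CRE nor TATAAA. Capitals mark the CRE and a TATAAA box.
Areg: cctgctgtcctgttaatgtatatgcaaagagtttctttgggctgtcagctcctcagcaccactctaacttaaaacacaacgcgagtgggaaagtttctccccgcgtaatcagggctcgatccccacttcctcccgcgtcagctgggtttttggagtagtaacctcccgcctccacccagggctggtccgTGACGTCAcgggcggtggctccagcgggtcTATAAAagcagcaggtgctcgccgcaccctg
Errfi1: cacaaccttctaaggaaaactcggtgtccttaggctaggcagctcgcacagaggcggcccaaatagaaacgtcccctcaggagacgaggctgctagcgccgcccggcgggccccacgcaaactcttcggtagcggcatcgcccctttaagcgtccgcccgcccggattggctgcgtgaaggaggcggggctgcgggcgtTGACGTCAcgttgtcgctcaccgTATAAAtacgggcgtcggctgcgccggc
The CRE lies 61 to 54 bases before the start in Areg and 51 to 44 bases before it in Errfi1, and the TATAAA lies 31 to 26 and 28 to 23 bases before it. The window of Epgn, which is not shown, also holds TATAAA, 86 to 81 bases before the start. The CRE reads the same on both strands and contains the core TGACG on each. Of 32851 promoters of this length, 1.55% hold the CRE on either strand, and 7.59% hold TATAAA on the strand of the gene. The core outside a CRE was found once more in Areg, 115 to 111 bases before the start, and in Btc, Epgn, and Erbb2, and 17.8% of all promoters hold it on either strand. Neither the AP-1 motif TGAGTCA (4.46% of promoters, either strand) nor a CArG box (1.47%) was found in any window of the 7 genes. These matches describe letters in a window and were not tested as binding sites.

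Areg, Ereg, Btc, and Epgn are neighbours. In GRCm38 they form 1 run on chromosome 5 from 91027464 to 91402994, 375.5 kb long with 0 other protein-coding genes inside it. Epgn lies from 91027464 to 91035215, Ereg from 91074622 to 91093646, and Areg from 91139599 to 91148432, all on the plus strand, and Btc from 91357261 to 91402994 on the minus strand. Hbegf lies on chromosome 18 from 36504927 to 36515805 (minus strand) and Tgfa on chromosome 6 from 86195223 to 86275719 (plus strand). Egfr lies on chromosome 11 from 16752203 to 16918158, Erbb2 on the same chromosome from 98412470 to 98437716 (both plus strand), and Erbb3 on chromosome 10 from 128567523 to 128589652 (minus strand). Errfi1 lies on chromosome 4 from 150853919 to 150868892 (plus strand). Ereg shares 141 of its 4128 exonic bases with Gm19610 on the other strand, and without the strand setting of the counting reads there cannot be told apart. Gm19610 held at most 95 counts in a library, against 336 to 13654 counts for Ereg. Tgfa shares 118 of 6490 exonic bases with Gm43917, which had 0 counts, and Erbb2 shares 9 of 5210 with Mien1.

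The cells were checked against marker genes. Of 8 preadipocyte and stromal markers, 7 had over 3 counts in every library, and Dlk1 was at 0 in all 18. Levels are given as CPM, which are counts scaled to the library total. The summed level of these 8 markers was 2223 to 2377 CPM in vehicle libraries, 2339 to 2384 CPM with FGF6 at 4 h, 2054 to 2123 CPM at 8 h, and 1609 to 1676 CPM at 24 h. Itgb1 was the largest part of this sum in each group, and the markers did not all differ in the same direction. At 24 h its mean was 988 CPM with vehicle and 1234 CPM with FGF6. The means of Pdgfrb were 693 and 134 CPM, those of Pdgfra 280.5 and 91.5 CPM, and those of Ly6a 243 and 32.3 CPM. Cd34, in contrast, had a mean of 42.96 CPM with FGF6, above 16.5 CPM in vehicle cells. Markers of other cell types were low, and several sums differed in range between treatments. The sum over 6 markers of mature brown adipocytes was 4.69 to 6.13 CPM in vehicle and 0.168 to 1.15 CPM in FGF6 libraries, with Lep at 0 throughout and Ucp1 at 0 except for 17 to 25 counts with FGF6 at 24 h. The sum over 4 skeletal muscle markers was 5.15 to 9.86 CPM with vehicle and 1.21 to 4.52 CPM with FGF6, and that over 4 endothelial markers 0.377 to 1.67 and 1.96 to 5.65 CPM. The sum over 6 epithelial markers was 0.158 to 0.804 CPM with vehicle and 0.879 to 2.72 CPM with FGF6, mostly Krt8 and Krt18, while Krt5 and Krt14 had at most 4 counts in a library. Of 4 immune markers, Cd68 alone had over 3 counts in every library, and the sum was 5.67 to 11.5 CPM with vehicle and 2.99 to 16.7 CPM with FGF6. The part of these cell types in the results was not tested. In bulk RNA, fewer cells that express a gene and less of its RNA per cell cannot be told apart.

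Replicate 3 of vehicle at 24 h stood apart from its group over all genes. The chi-square per degree of freedom was 37.96 and 41.2 between it and the other 2 libraries of its group, against 2.44 to 7.62 for all other pairs of libraries within a group. It enters each contrast that uses vehicle at 24 h, and the values without it are given after those of the members.

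The first question was how the ligands differ between FGF6-treated and vehicle-treated cells. The largest difference was that of Areg, which was nearly silent in vehicle cells and abundant with FGF6 at each time, and Ereg, Hbegf, and Btc were higher as well. Tgfa and Epgn were close to the limit of detection in all groups. Because this contrast was the reason for choosing the genes, their values are a description and no p-value is given for them. Fold changes are on the log2 scale from edgeR's quasi-likelihood fit, with the standard error (SE) after each.

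Areg held 16, 11, and 10 counts in the vehicle libraries at 4 h, 4, 2, and 5 at 8 h, and 9, 12, and 5 at 24 h. With FGF6 it held 966, 1047, and 957 counts at 4 h, 1145, 1128, and 901 at 8 h, and 2424, 2345, and 2329 at 24 h. The lowest FGF6 library was thus far above the highest vehicle library, and the groups did not overlap at any time. In CPM, Areg went from 0.398 ± 0.105 to 35.99 ± 2.77 at 4 h, from 0.120 ± 0.0540 to 37.4 ± 0.461 at 8 h, and from 0.296 ± 0.0777 to 85.9 ± 2.35 at 24 h (mean ± SD, n = 3 and 3). The log2 fold change was 6.48 ± 0.22 at 4 h, 8.24 ± 0.39 at 8 h, and 8.12 ± 0.26 at 24 h, which is 89.4-fold, 303-fold, and 279-fold. Among the 15071 genes tested, ordered by log2 fold change from the highest, Areg stood at place 3 at 4 h, 1 at 8 h, and 3 at 24 h. The precision of these folds is set by the vehicle libraries, whose counts at 8 h lay near a floor of 3 counts (0.0905 to 0.126 CPM, counting error only).

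Ereg, which encodes epiregulin, was the ligand with the highest level per kb of exon in vehicle cells. Its vehicle libraries were at 26.1, 25.7, and 24.8 CPM at 4 h, 18.3, 16.7, and 16.2 at 8 h, and 14.8, 13.6, and 14.1 at 24 h. With FGF6 it was at 411, 435, and 460.0 CPM at 4 h, 364, 364, and 356 at 8 h, and 265, 216, and 205 at 24 h. All FGF6 libraries were above all vehicle libraries, with log2 fold changes of 4.09 ± 0.07, 4.41 ± 0.07, and 4.01 ± 0.08 at 4, 8, and 24 h.

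Hbegf encodes heparin-binding EGF-like growth factor. Its vehicle libraries were at 14.2, 14.2, and 14.8 CPM at 4 h, 9.75, 8.07, and 7.39 at 8 h, and 8.09, 9.32, and 9.33 at 24 h. With FGF6 it was at 151, 151, and 157 CPM at 4 h, 144, 150.3, and 135 at 8 h, and 90.5, 85.02, and 86.2 at 24 h. Its groups did not overlap either, and the log2 fold changes were 3.41 ± 0.06, 4.09 ± 0.07, and 3.29 ± 0.07.

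Btc, which encodes betacellulin, was higher by a smaller amount. Its vehicle libraries were at 9.83, 10.04, and 12.99 CPM at 4 h, 5.18, 8.01, and 8.52 at 8 h, and 7.08, 8.29, and 7.82 at 24 h. With FGF6 it was at 46.3, 50.1, and 44.5 CPM at 4 h, 42.2, 43.3, and 44.05 at 8 h, and 30.3, 31.3, and 31.1 at 24 h. All its FGF6 libraries were above all its vehicle libraries, with log2 fold changes of 2.11 ± 0.10, 2.58 ± 0.11, and 2.00 ± 0.11.

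Tgfa and Epgn, which encode transforming growth factor alpha and epigen, stood apart from these 4 ligands. Tgfa had 3 to 12 counts per vehicle library and 3 to 10 counts per FGF6 library. Its log2 fold changes of 0.09 ± 0.53, 0.87 ± 0.53, and -0.28 ± 0.51 at 4, 8, and 24 h did not pass the threshold. At 8 h all 3 FGF6 libraries were above the vehicle libraries in CPM, and at 4 and 24 h the groups overlapped. The highest vehicle library and the lowest FGF6 library at 8 h both held 8 counts (0.253 and 0.260 CPM). Epgn had 2 to 8 counts per vehicle library and 4 to 10 counts per FGF6 library and was not tested. A difference in Tgfa was not detectable at this depth.

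**Figure D1:**
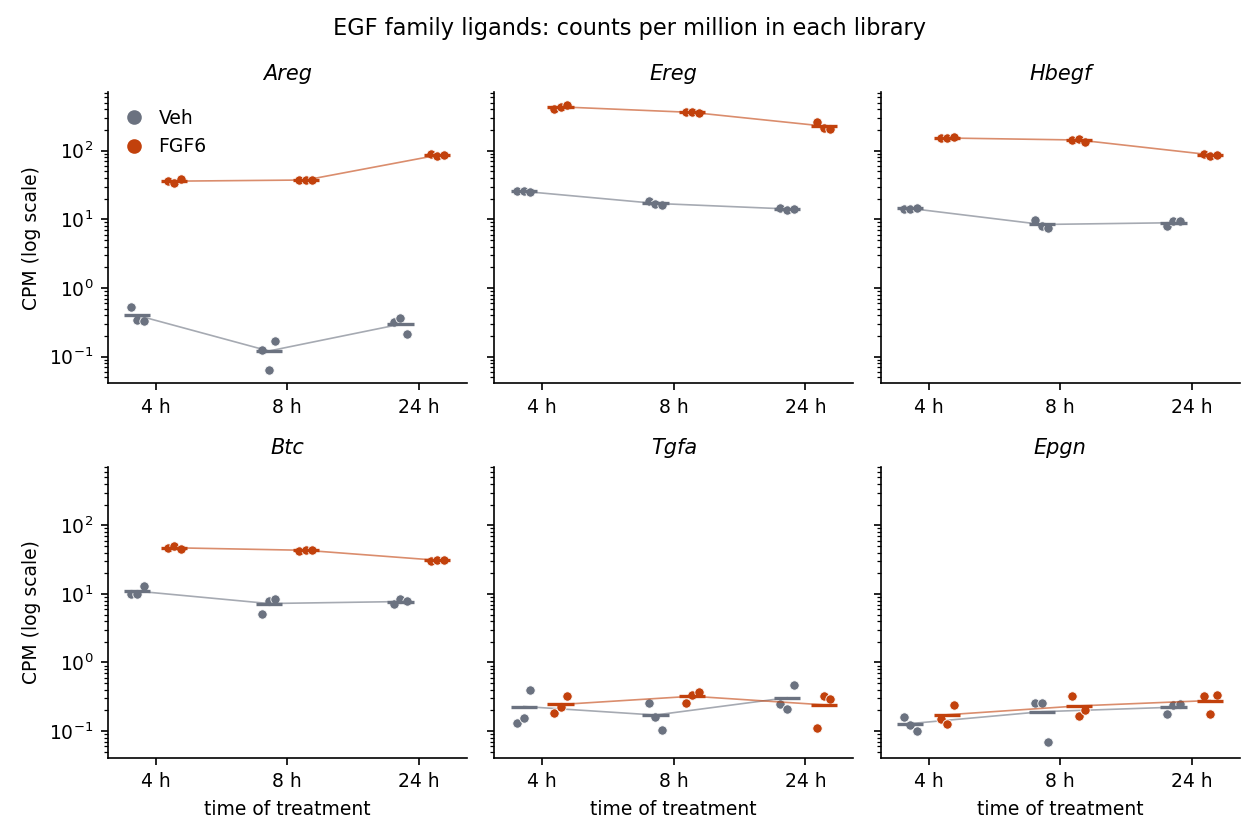
Each dot is 1 library, with CPM on a log scale against the time of treatment for the 6 ligands, grey for Veh and orange for FGF6, and bars mark the means of 3 libraries. Areg, Ereg, Hbegf, and Btc have all FGF6 libraries above all Veh libraries at the 3 times, and Tgfa and Epgn stay under 1 CPM in every library.

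The receptors behaved differently from the ligands and from each other. Egfr was higher with FGF6 at 4 h, lower at 8 h, and much lower at 24 h. Erbb3 was lower at 4 and 8 h and was not called at 24 h, and Erbb2 differed little at any time.

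Egfr, the receptor of all these ligands, was at 68.3, 65.4, and 63.9 CPM in the vehicle libraries at 4 h, 68.6, 80.3, and 73.9 at 8 h, and 81.6, 88.3, and 87.96 at 24 h. With FGF6 it was at 82.8, 93.04, and 92.6 CPM at 4 h, 42.9, 44.3, and 47.2 at 8 h, and 14.4, 13.8, and 13.7 at 24 h. The groups did not overlap at any time, and the side on which FGF6 lay turned between 4 and 8 h. The log2 fold change was 0.44 ± 0.05 at 4 h, -0.73 ± 0.06 at 8 h, and -2.62 ± 0.07 at 24 h, the last a level 6.15-fold lower than in vehicle cells.

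Erbb2, which encodes the receptor without a ligand, was at 80.9, 78.6, and 75.9 CPM with vehicle and 80.4, 85.7, and 82.8 CPM with FGF6 at 4 h. It was at 64.9, 65.2, and 61.99 and 62.5, 63.2, and 61.3 CPM at 8 h, and at 54.9, 59.3, and 53.6 and 50.7, 50.4, and 54.8 CPM at 24 h. These values overlapped at each time. The log2 fold changes were 0.08 ± 0.04, -0.04 ± 0.04, and -0.11 ± 0.05, and the last passed the threshold. That call was lost with DESeq2, in a fit of only the libraries compared, and without any 1 of 10 libraries, which were all 3 of each treatment at 24 h, all 3 FGF6 libraries at 4 h, and FGF6 replicate 3 at 8 h (-0.11 to -0.02). The 4 h value did not pass the threshold. It was called higher with DESeq2, with at least 10 counts in every library, and with only the libraries compared (0.10 to 0.12). This call was also gained without FGF6 replicate 1 at 4 h, replicate 3 at 8 h, or replicate 1 or 3 at 24 h. Leaving out any vehicle library at 24 h gained it too (0.10 to 0.13 over these fits). The 8 h value did not pass the threshold and was called lower when scaled to library totals only (-0.10).

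Erbb3, which encodes the receptor for neuregulins, was a low gene, at 3.28, 2.75, and 2.67 CPM in vehicle libraries and 1.15, 0.701, and 0.813 CPM in FGF6 libraries at 4 h. At 8 h it was at 3.28, 4.10, and 2.64 CPM with vehicle and 1.43, 1.45, and 1.07 CPM with FGF6. At both times the FGF6 libraries lay below all vehicle libraries, with log2 fold changes of -1.71 ± 0.25 and -1.33 ± 0.22. At 24 h the values were 2.45, 3.02, and 1.68 CPM with vehicle and 2.08, 2.25, and 2.42 CPM with FGF6, which overlap, and the log2 fold change was -0.11 ± 0.21.

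Errfi1, the inhibitor of EGFR, stood highest of the 10 genes in level per kb of exon in every group. Its vehicle libraries were at 206, 223, and 222 CPM at 4 h, 139.8, 145, and 146 at 8 h, and 164, 159, and 164 at 24 h. With FGF6 it was at 928, 974, and 977 CPM at 4 h, 735, 719, and 729 at 8 h, and 640.1, 610.4, and 638 at 24 h. No group overlapped with its control, and the log2 fold changes were 2.14 ± 0.03, 2.34 ± 0.03, and 1.96 ± 0.03. Per kb of exon, Errfi1 with FGF6 stood above 99.4, 99.1, and 98.9% of the genes tested at 4, 8, and 24 h.

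**Figure D2:**
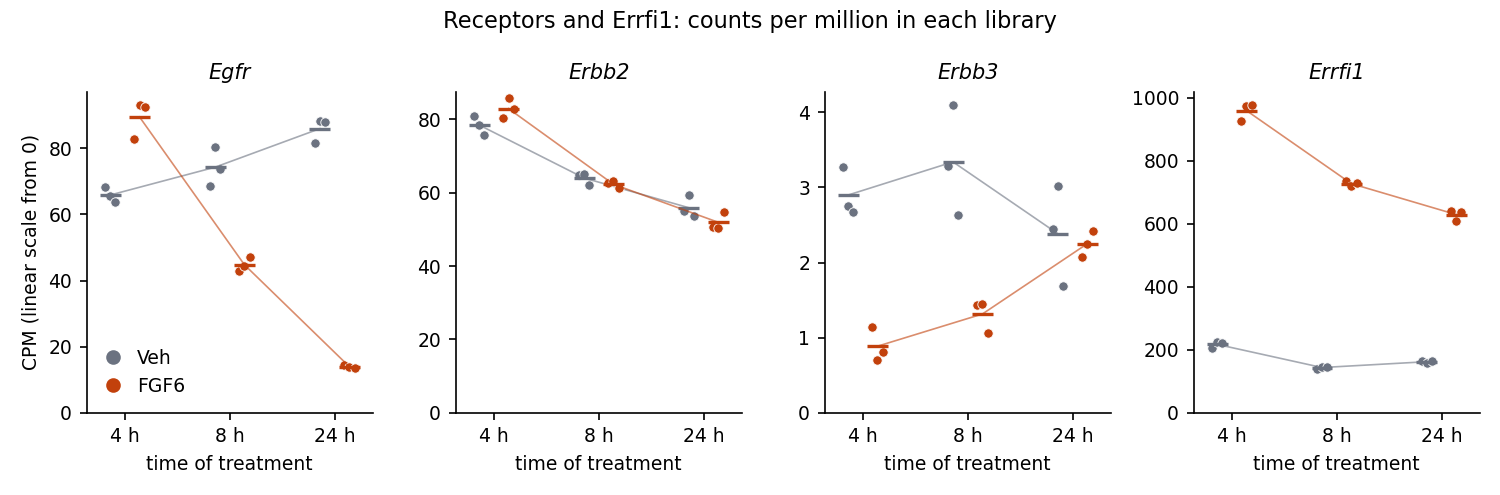
Each dot is 1 library, with CPM on a linear scale from 0 against the time of treatment for Egfr, Erbb2, Erbb3, and Errfi1, and bars mark the means of 3 libraries. Egfr with FGF6 passes from above Veh at 4 h to below it at 8 h and ends at 13.96 CPM against 85.9 CPM, and Errfi1 with FGF6 stays above Veh.

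Counted over the family at a false discovery rate (FDR) under 0.05, 7 of the 9 genes tested were called at 4 h (6 higher and 1 lower), 7 at 8 h (5 higher and 2 lower), and 7 at 24 h (5 higher and 2 lower). The same threshold called 62.8% of all genes (28.6% higher, 34.2% lower) at 4 h, 70.8% of all genes (32.4% higher, 38.4% lower) at 8 h, and 73.8% of all genes (35.9% higher, 37.9% lower) at 24 h, and since this contrast chose the genes nothing is read from the difference. With at least 2-fold also required, 6, 6, and 6 of the 9 were called, against 11.3%, 18.3%, and 22.8% of all genes. The groups did not overlap in CPM for 7, 8, and 6 of the 9 genes, against 66.2%, 73.8%, and 74.8% of all genes. Tgfa at 8 h, with its tie in counts, is among them. The median log2 fold change of the 9 was 2.11, 2.34, and 1.96, and that of all genes -0.05, -0.05, and -0.02. With library sizes alone as the scaling, the median of all genes at 4 h shifted by -0.10, and of all genes called 3242 were higher and 6495 lower, in place of 4308 and 5152.

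Without replicate 3 of vehicle at 24 h, the log2 fold changes at 24 h were 8.00 for Areg, 4.05 for Ereg, 3.36 for Hbegf, 2.04 for Btc, 2.00 for Errfi1, -2.56 for Egfr, -0.25 for Erbb3, and -0.10 for Erbb2. That of Tgfa was 0.13 in place of -0.28, not called with or without it. Of the member calls at 24 h and in the comparisons of times below, only that of Erbb2 at 24 h was lost, and none was gained. At 4 h Erbb2 was called higher without it (0.10), as it was under the other alternatives given with its values. Replicate 3 of vehicle at 24 h enters that comparison only through what the fit shares over all libraries.

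**Figure D3:**
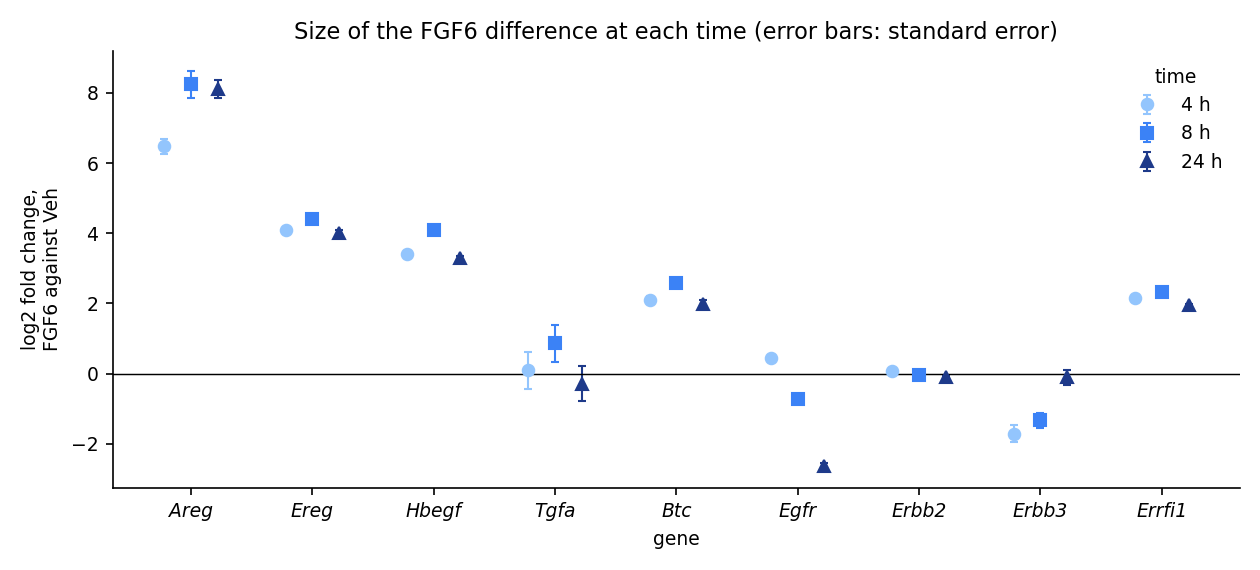
Log2 fold change of FGF6 against Veh for the 9 genes tested, with 1 symbol for each time and error bars of 1 standard error. Areg lies between 6.48 and 8.24, Ereg, Hbegf, Btc, and Errfi1 lie between 1.96 and 4.41, and Egfr moves from 0.44 to -2.62.

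The second question was whether the FGF6 difference changed with time, which was tested as an interaction. It is built from the contrast that chose the genes, in the same libraries, so its p-values are not independent of that choice. From 4 to 8 h the difference grew for Areg, Ereg, Hbegf, Btc, and Errfi1 and turned for Egfr. None of the genes whose difference grew was called higher in FGF6 cells over this step, and all were called lower in vehicle cells. From 8 to 24 h the difference shrank for Ereg, Hbegf, Btc, and Errfi1, became more negative for Egfr, and moved toward 0 for Erbb3. For Areg the change from 8 to 24 h was -0.12 ± 0.47 and was not called (edgeR adjusted p = 0.837).

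At 8 against 4 h, 6 of the 9 genes were called (5 higher and 1 lower), against 30.6% of all genes (15.5% higher, 15.1% lower), and with 2-fold required 2 were called, against 3.49% of all genes. The difference of log2 fold changes was 1.76 ± 0.45 for Areg (edgeR adjusted p = 0.00146), 0.68 ± 0.09 for Hbegf (edgeR adjusted p = 3.79e-06), 0.48 ± 0.15 for Btc (edgeR adjusted p = 0.0166), and 0.31 ± 0.10 for Ereg (edgeR adjusted p = 0.0179). It was 0.20 ± 0.05 for Errfi1 (edgeR adjusted p = 0.00245) and -1.17 ± 0.08 for Egfr (edgeR adjusted p = 3.19e-11). The call of Btc was lost without vehicle replicate 3 at 4 h (0.34, edgeR adjusted p = 0.0861) or without vehicle replicate 1 at 8 h (0.28, edgeR adjusted p = 0.0849). That of Ereg was lost without vehicle replicate 3 at 8 h (0.28, edgeR adjusted p = 0.0577) and with limma's voom (0.32, limma adjusted p = 0.0664).

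At 24 against 8 h, 6 of the 9 were called (1 higher and 5 lower), against 45.1% of all genes (22.6% higher, 22.5% lower), and with 2-fold required 2, against 8.49%. Ligands that had grown apart from their controls came closer again, by -0.39 ± 0.11 for Ereg (edgeR adjusted p = 0.00349), -0.80 ± 0.10 for Hbegf (edgeR adjusted p = 3.6e-07), and -0.58 ± 0.16 for Btc (edgeR adjusted p = 0.0037), as did Errfi1 by -0.38 ± 0.05 (edgeR adjusted p = 3.38e-07). Egfr moved by -1.89 ± 0.09 (edgeR adjusted p = 2.39e-15) and Erbb3 by 1.22 ± 0.30 (edgeR adjusted p = 0.00167).

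At 24 against 4 h, 5 of the 9 were called (2 higher and 3 lower), against 53.5% of all genes (28.3% higher, 25.2% lower), and with 2-fold required 3, against 12.6%. Areg was then 1.64 ± 0.34 further above its control than at 4 h (edgeR adjusted p = 0.00017). Ereg, Hbegf, and Btc had -0.08 ± 0.10, -0.12 ± 0.09, and -0.11 ± 0.15 and were not called, although Ereg was called without FGF6 replicate 1 at 24 h (-0.18, edgeR adjusted p = 0.0388). Egfr had -3.06 ± 0.08 (edgeR adjusted p = 6e-20), Erbb3 1.61 ± 0.32 (edgeR adjusted p = 0.000137), Errfi1 -0.19 ± 0.05 (edgeR adjusted p = 0.00177), and Erbb2 -0.19 ± 0.06 (edgeR adjusted p = 0.0129). The call of Erbb2 was lost without FGF6 replicate 2 at 4 h (-0.15, edgeR adjusted p = 0.079), FGF6 replicate 1 at 24 h (-0.15, edgeR adjusted p = 0.0665), or vehicle replicate 2 at 24 h (-0.13, edgeR adjusted p = 0.109). It was also lost with upper-quartile factors (-0.15, edgeR adjusted p = 0.0548) and when scaled to library totals only (-0.10, edgeR adjusted p = 0.22). Under the latter scaling the call of Errfi1 was lost too (-0.09, edgeR adjusted p = 0.0867).

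In FGF6-treated cells alone, Areg rose late while Ereg, Hbegf, and Btc fell. Areg had a log2 difference of 0.06 ± 0.06 from 4 to 8 h (edgeR adjusted p = 0.408) and rose by 1.20 ± 0.05 from 8 to 24 h (edgeR adjusted p = 3.96e-16), a 2.30-fold increase. Ereg fell by 0.27 ± 0.06 from 4 to 8 h (edgeR adjusted p = 0.000547) and by 0.66 ± 0.06 from 8 to 24 h (edgeR adjusted p = 6.21e-10). From 4 to 8 h Hbegf had -0.10 ± 0.05 and Btc -0.12 ± 0.08, neither called (edgeR adjusted p = 0.118 and 0.242). In a fit of only the libraries compared both were called lower in this step (-0.10, edgeR adjusted p = 0.0392 for Hbegf, and -0.13, edgeR adjusted p = 0.0321 for Btc), as Hbegf was with limma's voom (-0.09, limma adjusted p = 0.0464). Hbegf and Btc fell by 0.72 ± 0.05 and 0.48 ± 0.09 from 8 to 24 h (edgeR adjusted p = 6.95e-12 and 3.76e-05). Among the receptors, Egfr fell by 1.00 ± 0.06 and then by 1.68 ± 0.07 (edgeR adjusted p = 1.39e-13 and 6.03e-17), from 89.5 CPM at 4 h to 13.96 CPM at 24 h. Erbb2 fell by 0.41 ± 0.04 and 0.26 ± 0.05 (edgeR adjusted p = 1.93e-08 and 1.64e-05). Erbb3 rose by 0.76 ± 0.23 from 8 to 24 h (edgeR adjusted p = 0.00587). From 4 to 8 h it had 0.59 ± 0.27 (edgeR adjusted p = 0.0752) and was called without FGF6 replicate 1 at 4 h (0.82, edgeR adjusted p = 0.032) and when scaled to library totals only (0.65, edgeR adjusted p = 0.0497). Errfi1 fell by 0.40 ± 0.03 and 0.21 ± 0.03 (edgeR adjusted p = 2.79e-10 and 6.15e-06).

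In these cells 4 of the 9 genes were called from 4 to 8 h (0 higher and 4 lower), against 48.2% of all genes (24.1% higher, 24% lower), with 1 past 2-fold, against 4.9%. At an FDR under 0.25, the threshold of the study, 7 of the 9 were called in this step, against 64.3%. From 8 to 24 h 8 were called (2 higher and 6 lower), against 62.3% of all genes (31.1% higher, 31.2% lower), with 2 past 2-fold, against 11.8%. From 4 to 24 h 8 were called (2 higher and 6 lower), against 71.2% of all genes (35.2% higher, 36% lower), with 3 past 2-fold, against 19.5%. Over this span Areg rose by 1.26 ± 0.05 and Erbb3 by 1.35 ± 0.26 (edgeR adjusted p = 6.32e-17 and 3.15e-05).

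Vehicle cells changed with time too. From 4 to 8 h, 7 of the 9 genes were called (1 higher and 6 lower), against 43% of all genes (21.2% higher, 21.7% lower), with 1 past 2-fold, against 2.26%. Areg fell by 1.70 ± 0.44 (edgeR adjusted p = 0.00108), Hbegf by 0.77 ± 0.08 (edgeR adjusted p = 1.15e-08), Btc by 0.60 ± 0.12 (edgeR adjusted p = 0.000256), and Ereg by 0.58 ± 0.08 (edgeR adjusted p = 1.46e-06). The gene past 2-fold was Areg, whose call rests on 10 to 16 counts per library at 4 h and 2 to 5 at 8 h. Errfi1 fell by 0.60 ± 0.03 (edgeR adjusted p = 4.6e-13) and Erbb2 by 0.29 ± 0.04 (edgeR adjusted p = 4.5e-06). Egfr, in contrast, rose in vehicle cells at each step, by 0.17 ± 0.05 from 4 to 8 h (edgeR adjusted p = 0.0107) and by 0.21 ± 0.05 from 8 to 24 h (edgeR adjusted p = 0.00196), while it fell in FGF6 cells. The first of these steps was not called without vehicle replicate 2 at 8 h (0.11, edgeR adjusted p = 0.121) or without vehicle replicate 3 at 4 h (0.15, edgeR adjusted p = 0.0514).

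From 8 to 24 h in vehicle cells, 5 of the 9 were called (3 higher and 2 lower), against 49.2% of all genes (25.5% higher, 23.7% lower), with 1 past 2-fold, against 4.48%. Areg rose by 1.32 ± 0.46 (edgeR adjusted p = 0.0151), a call on 2 to 12 counts per library that was lost without vehicle replicate 2 at 8 h (1.02, edgeR adjusted p = 0.0993) or at 24 h (1.14, edgeR adjusted p = 0.0906). Errfi1 rose by 0.18 ± 0.03 (edgeR adjusted p = 0.000146), and Erbb2 and Ereg fell by 0.19 ± 0.04 and 0.27 ± 0.09 (edgeR adjusted p = 0.000774 and 0.0117). The call of Ereg was lost without vehicle replicate 1 at 8 h (-0.21, edgeR adjusted p = 0.0684) or replicate 2 at 24 h (-0.24, edgeR adjusted p = 0.0594), and with limma's voom (-0.27, limma adjusted p = 0.107). Erbb3 had -0.46 ± 0.20 (edgeR adjusted p = 0.052) and was called without vehicle replicate 3 at 8 h (-0.61, edgeR adjusted p = 0.0189), vehicle replicate 2 at 24 h (-0.68, edgeR adjusted p = 0.0143), or FGF6 replicate 1 at 4 h (-0.47, edgeR adjusted p = 0.048). It was also called with limma's voom (-0.46, limma adjusted p = 0.0494) and by edgeR when scaled to library totals only (adjusted p = 0.0245), with upper-quartile factors (0.0381), without a filter on low counts (0.021), with at least 10 counts in every library (0.0382), and with the replicate block (0.0334). Without vehicle replicate 3 at 24 h it had -0.29, edgeR adjusted p = 0.241, and with DESeq2 or only the libraries compared it was not called. From 4 to 24 h 6 were called (1 higher and 5 lower), against 60.8% of all genes (30.9% higher, 30% lower), and 0 passed 2-fold, against 8.24%.

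Levels of different genes were compared per length, as CPM per kb of exon. In vehicle cells at 4 h the order of the ligands was Ereg (6.18 ± 0.153 CPM per kb, mean ± SD, n = 3), Hbegf (2.98 ± 0.0612), Btc (2.42 ± 0.390), Areg (0.327 ± 0.0865), Epgn (0.0712 ± 0.0173), and Tgfa (0.0352 ± 0.0231). Epgn and Tgfa overlapped at 4 h, so their order is not firm, and Hbegf and Btc overlapped in the vehicle libraries at 8 and 24 h. With FGF6 the order was Ereg (105 ± 5.95 CPM per kb), Hbegf (31.7 ± 0.750), Areg (29.6 ± 2.28), and Btc (10.4 ± 0.633) at 4 h, where Hbegf and Areg overlapped, as they did at 8 h. At 24 h Areg came first with 70.7 ± 1.93 CPM per kb, above Ereg with 55.3 ± 7.76 in every library, followed by Hbegf with 18.1 ± 0.594 and Btc with 6.84 ± 0.119.

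The summed level of the 6 ligands was 12.02 ± 0.288 CPM per kb with vehicle and 177 ± 7.93 with FGF6 at 4 h, 7.70 ± 0.182 and 158 ± 2.85 at 8 h, and 7.40 ± 0.164 and 151 ± 9.92 at 24 h. The make-up of the sum with FGF6 shifted from Ereg to Areg at 24 h. Areg was 2.72 ± 0.734% of the sum in vehicle cells at 4 h, 1.29 ± 0.597% at 8 h, and 3.29 ± 0.863% at 24 h, and 16.7 ± 0.903%, 19.5 ± 0.168%, and 46.9 ± 1.93% with FGF6. Ereg made up 51.5 ± 2.34%, 53.6 ± 2.37%, and 46.4 ± 2.96% with vehicle and 59.5 ± 0.945%, 55.5 ± 0.428%, and 36.5 ± 2.69% with FGF6. These shares rest on the annotated exon length, 1215 bases for Areg and 4128 for Ereg, and without division by length Areg was 19.9% and Ereg 52.6% at 24 h with FGF6.

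The summed level of the 3 receptors was 21.4 ± 0.732 CPM per kb with vehicle and 23.97 ± 0.948 with FGF6 at 4 h, 19.4 ± 0.772 and 16.1 ± 0.125 at 8 h, and 18.7 ± 0.835 and 11.6 ± 0.471 at 24 h. At 24 h the sum with FGF6 was thus below that with vehicle. Egfr was 40.6 ± 1.57% of it in vehicle cells at 24 h and 10.7 ± 0.650% in FGF6 cells, and Erbb2 was 57.3 ± 1.07% and 86.1 ± 0.544%. Without division by length the order of the receptors in vehicle cells at 24 h turned, with Egfr at 59.6% and Erbb2 at 38.8%, whereas with FGF6 Egfr was 20.5% and Erbb2 76.2%. Per kb, Erbb3 was at most 3.36% of the sum in any library.

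**Figure D4:**
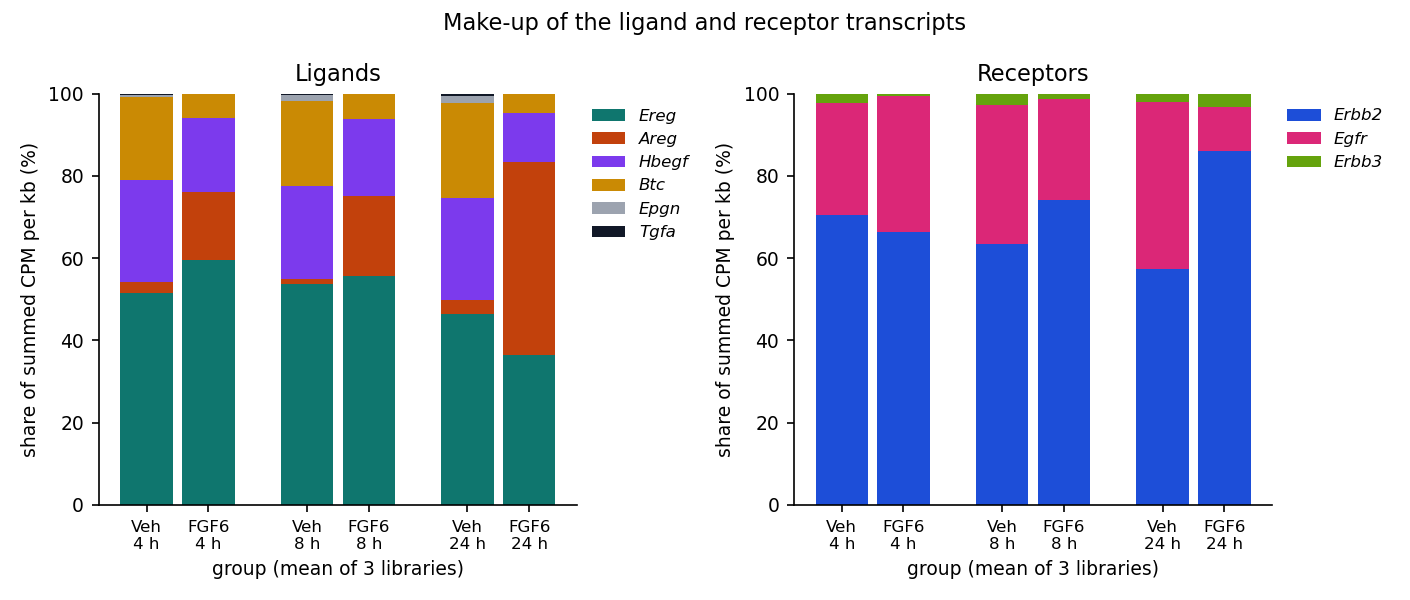
Stacked bars give the mean share (percent, 3 libraries) of each gene in the summed CPM per kb of the 6 ligands (left) and the 3 receptors (right) in each group. With FGF6 at 24 h Areg takes 46.9% of the ligand sum, against 3.29% with Veh, and Egfr takes 10.7% of the receptor sum, against 40.6%.

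Other genes of the pathway were described in the same contrast from lists drawn up from general knowledge, and the shares of all genes called, given above for each time and direction, are their background. Of the remaining EGF family ligands and receptor, 3 of 6 were tested and none was called higher, while Nrg1 and Egf were lower at each time. Nrg1, which encodes the neuregulin 1 ligand of ERBB3, went from 96.3 CPM with vehicle to 9.48 CPM with FGF6 at 24 h. Its log2 fold change was -0.60 ± 0.04, -1.61 ± 0.04, and -3.34 ± 0.05 at 4, 8, and 24 h (edgeR adjusted p = 4.02e-12, 1.1e-20, and 3.11e-26), and it was lower in all FGF6 libraries at each time. Egf, which encodes EGF itself, had -0.58 ± 0.16, -0.63 ± 0.15, and -1.08 ± 0.19 (edgeR adjusted p = 0.00199, 0.000575, and 1.22e-05). Nrg4, another neuregulin gene, had 0.20 ± 0.28, 0.07 ± 0.30, and 0.27 ± 0.33 and was not called (edgeR adjusted p = 0.556, 0.847, and 0.465). Nrg2 was too low to be tested (0 to 9 counts), and Nrg3 and Erbb4 were at 0 in every library.

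The 11 genes of ligand shedding, which cut the precursors free or regulate the cut, split in direction. The calls were 7 higher and 3 lower at 4 h, 4 higher and 5 lower at 8 h, and 4 higher and 7 lower at 24 h, with median log2 fold changes of 0.18, -0.08, and -0.43. Adam8, which encodes a membrane metalloprotease, had 1.39 ± 0.11, 2.36 ± 0.12, and 2.56 ± 0.12 at 4, 8, and 24 h (edgeR adjusted p = 2.04e-11, 7.7e-16, and 8.75e-17). Adam19, which encodes another, had 1.52 ± 0.04, 1.83 ± 0.04, and 0.81 ± 0.04 (edgeR adjusted p = 7.14e-21, 1.65e-22, and 2.47e-15). Adam12, also of this family, had 0.15 ± 0.06, -0.04 ± 0.07, and -3.22 ± 0.13 (edgeR adjusted p = 0.0377, 0.63, and 7.51e-19), and its 8 h value was not called. Timp3, which encodes an inhibitor of metalloproteases, was higher at 4 h and lower at 8 and 24 h. It had 0.51 ± 0.03, -0.20 ± 0.03, and -2.68 ± 0.03 (edgeR adjusted p = 6.72e-14, 1.88e-06, and 4.44e-28). At 24 h its level was 371 CPM with vehicle and 57.8 CPM with FGF6.

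Most attenuators of ERBB receptors were higher. Of 10 tested among 11, the calls were 8 higher and 1 lower at 4 h, 8 higher and 1 lower at 8 h, and 6 higher and 1 lower at 24 h, with median log2 fold changes of 0.37, 0.31, and 0.31. Lrig1, which encodes a membrane protein that promotes the breakdown of ERBB receptors, had 1.99 ± 0.04, 2.12 ± 0.04, and 1.01 ± 0.04 (edgeR adjusted p = 6.46e-24, 1.95e-24, and 1.76e-18). Cblb, a ubiquitin ligase gene, had 1.43 ± 0.05, 1.61 ± 0.05, and 1.26 ± 0.05 (edgeR adjusted p = 1.24e-18, 8.23e-20, and 1.03e-17). Lrig2, a relative of Lrig1, was lower with -0.44 ± 0.05, -0.65 ± 0.05, and -0.58 ± 0.05 (edgeR adjusted p = 5.72e-08, 3.19e-11, and 1.87e-10). Cblc was too low to be tested (0 to 2 counts).

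The 16 adaptors and kinases between the receptors and ERK differed by little in size. The calls were 8 higher and 4 lower at 4 h, 7 higher and 6 lower at 8 h, and 10 higher and 5 lower at 24 h, with median log2 fold changes of 0.07, 0.12, and 0.26. Nras, which encodes a RAS protein, had 0.38 ± 0.04, 0.44 ± 0.04, and 0.52 ± 0.04 (edgeR adjusted p = 2.23e-09, 7.75e-11, and 2.64e-12). Gab1, an adaptor gene, had -0.99 ± 0.05, -1.09 ± 0.05, and -1.28 ± 0.05 (edgeR adjusted p = 8.65e-15, 5.04e-16, and 2.85e-17) and was the one gene of the list past 2-fold, at 8 and 24 h. Araf, a RAF kinase gene, had -0.07 ± 0.03, -0.22 ± 0.03, and -0.47 ± 0.03 (edgeR adjusted p = 0.0655, 2.15e-06, and 4.68e-12), and its 4 h value was not called.

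The 6 protein-coding genes nearest to the run on chromosome 5, 3 on each side, split in direction. The calls were 2 higher and 3 lower at 4 h, 3 higher and 3 lower at 8 h, and 2 higher and 3 lower at 24 h. Their median log2 fold changes were -0.05, -0.01, and -0.38. Not all were close to the run, with gaps of 114620 bases for Parm1, 121525 for Cxcl2, 134348 for Cxcl1, 545909 for Rchy1, and 584480 for Odaph. On the side of Epgn, Mthfd2l, a folate enzyme gene 6095 bases away, was higher at each time with 0.27 ± 0.06, 0.46 ± 0.06, and 0.52 ± 0.06 (edgeR adjusted p = 0.000474, 1.88e-07, and 1.5e-08). The chemokine gene Cxcl1 was lower with -0.78 ± 0.07, -0.49 ± 0.07, and -1.85 ± 0.07 (edgeR adjusted p = 2.08e-10, 4.08e-07, and 3.96e-18). Cxcl2, its neighbour, had 0.73 ± 0.27, 0.71 ± 0.27, and -0.06 ± 0.24 (edgeR adjusted p = 0.0203, 0.0207, and 0.838), and its 24 h value was not called. On the side of Btc, Parm1 was lower at each time with -0.54 ± 0.17, -1.54 ± 0.19, and -4.18 ± 0.29 (edgeR adjusted p = 0.00711, 6.4e-08, and 5.85e-15). Rchy1, a ubiquitin ligase gene, was lower with -0.36 ± 0.05, -0.58 ± 0.05, and -0.71 ± 0.05 (edgeR adjusted p = 1.62e-06, 2.65e-10, and 3.05e-12). Odaph held 0 to 4 counts per vehicle library and 2 to 32 per FGF6 library. It was not called at 4 h (edgeR adjusted p = 0.112), was called higher at 8 h against vehicle libraries of 0, 1, and 0 counts, for which no fold is given (edgeR adjusted p = 0.000201), and had a log2 fold change of 2.66 ± 0.62 at 24 h (edgeR adjusted p = 9e-05).

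**Figure D5:**
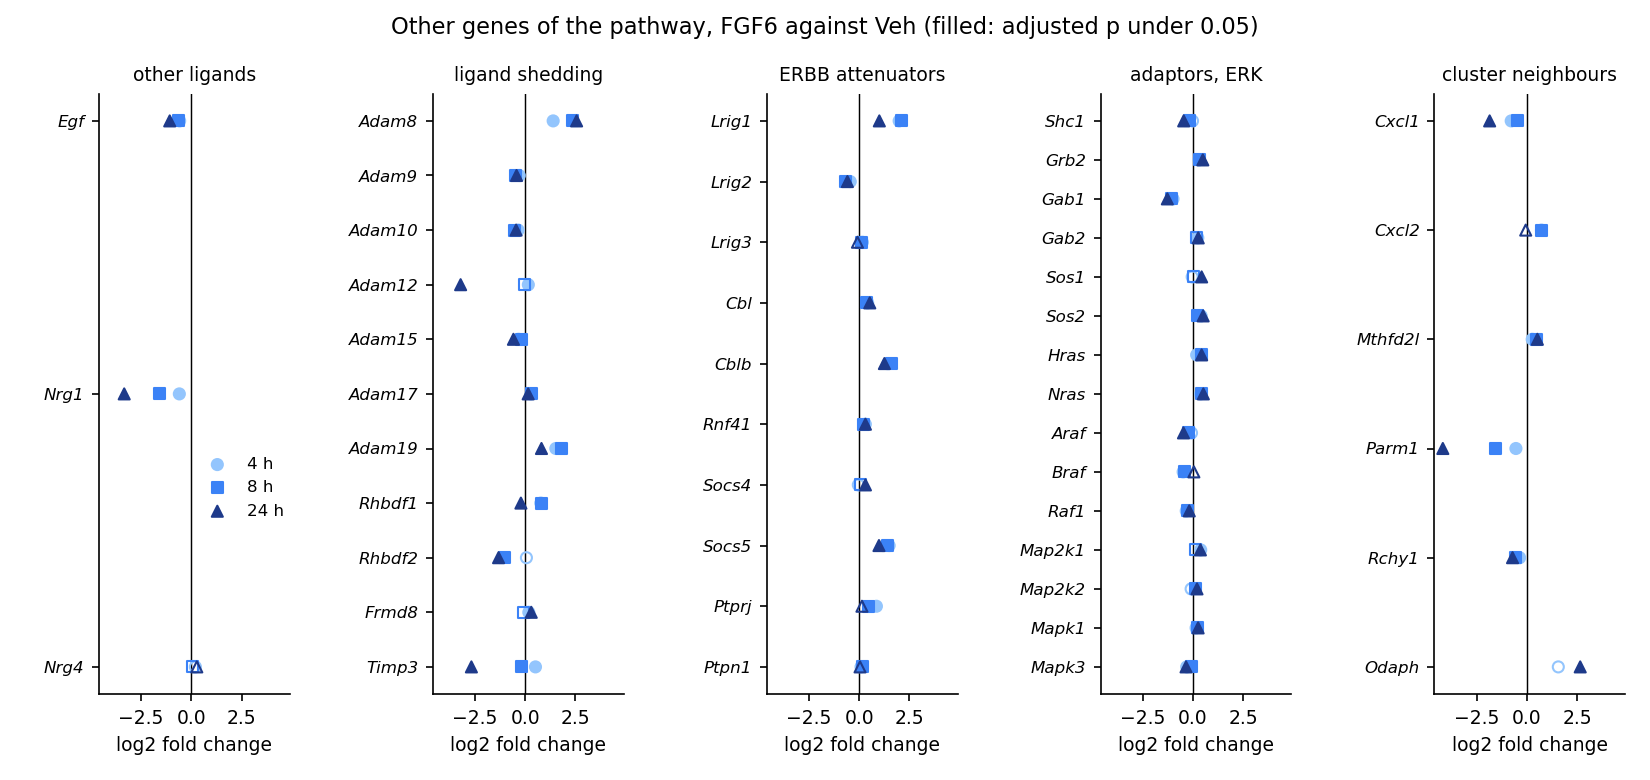
Log2 fold change of FGF6 against Veh for tested genes of the 5 pathway lists, with 1 symbol for each time, filled where the adjusted p is under 0.05 and open where it is not, with no symbol for Odaph at 8 h. Parm1, Nrg1, Adam12, and Timp3 have the lowest values at 24 h, and Lrig1, Cblb, Adam8, and Adam19 lie to the right of 0 at each time.

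The genes whose pattern over the 6 groups was most like that of Areg were Slc14a1, Il33, Sema7a, Tmem200a, and Prss22, in this order. Likeness was the root mean square difference of the 6 group means of log2 CPM (pseudocount 0.05 CPM), each less its own mean, and was 0.568, 1.133, 1.304, 1.414, and 1.489 among 12267 genes. The log2 fold changes at 4, 8, and 24 h were 5.77, 7.06, and 7.91 for Slc14a1, which encodes a urea transporter, and 3.55, 5.45, and 7.30 for Il33, which encodes a cytokine. Sema7a, a semaphorin gene, had 4.24, 6.03, and 5.41, Tmem200a had 3.77, 6.21, and 5.31, and Prss22, a serine protease gene, had 2.95, 4.27, and 7.01. All 5 genes had FGF6 values above vehicle at each time, which follows from choosing them for likeness to Areg.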

How the data were processed

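The 18 libraries were sorted by their labels into 6 groups of 3, by agent (vehicle or FGF6) and hours of exposure (4, 8, or 24). The deposited values are raw counts per gene with no scaling, which the authors made with STAR on GRCm38 followed by featureCounts from Subread. Tool versions, strand setting, and treatment of multiply mapped reads are not given in the sources used here, so counts of overlapping genes are uncertain.

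From these counts, edgeR 4.0.16 (R 4.3.3) filtered genes with filterByExpr, computed TMM factors (0.951 to 1.05), and fitted its quasi-likelihood model to 6 group means over all 18 libraries. P-values were adjusted over the 15071 genes tested by the Benjamini-Hochberg method, at an FDR under 0.05. CPM divides a count by its library's total after TMM scaling. Standard errors come from the weights and quasi-dispersion of the fit. The standard error first planned, the one implied by the F statistic, was 0.114 for Areg at 4 h in place of 0.217, too small for so few vehicle counts. GENCODE M21 (GRCm38), which held 98.5% of the gene identifiers, gave symbols, positions, exon lengths, and coding sequences. The script was tested on simulated counts with 200 genes changed.

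All 10 members, the other EGF ligands and receptor, and the neighbours of the run on chromosome 5 are named. In each other list, the 2 largest increases and 2 largest decreases at 24 h among genes past the threshold are named, and for likeness the 5 closest genes with a mean of at least 1 CPM. 1 result that this rule names is not reported here. Members, lists, and tests were chosen with earlier results of these data known. The alternatives were limma 3.58.1 with voom, DESeq2 1.42.0, library sizes alone, upper-quartile factors, other count filters, only the libraries compared, the replicate block, other thresholds, and leaving out each library. No 2 libraries of a group agreed within sampling noise (chi-square per degree of freedom at least 2.44), and vehicle replicate 3 at 24 h stood apart. The study's other experiments were not analysed here.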

Additional observations from a re-analysis of the deposited data

Results flagged for a closer look

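The FGF6 difference in log2 expression was compared between time points by edgeR's test of the interaction, and the genes that passed are given for each test. Between 4 and 8 h it changed by 1.76 for Areg, 0.68 for Hbegf, 0.48 for Btc, 0.31 for Ereg, 0.20 for Errfi1, and -1.17 for Egfr. Between 8 and 24 h it changed by -0.39 for Ereg, -0.80 for Hbegf, -0.58 for Btc, -0.38 for Errfi1, -1.89 for Egfr, and 1.22 for Erbb3. Between 4 and 24 h it changed by 1.64 for Areg, -3.06 for Egfr, 1.61 for Erbb3, and -0.19 for both Erbb2 and Errfi1. The call of Erbb2 was lost under 5 alternatives (-0.15 to -0.10), and that of Errfi1 when scaled to library totals only. Between 4 and 8 h the call of Btc was lost without vehicle replicate 3 at 4 h or without vehicle replicate 1 at 8 h. That of Ereg was lost without vehicle replicate 3 at 8 h and with limma's voom. For Areg the change between 4 and 8 h goes with the vehicle libraries, which held 10 to 16 counts at 4 h and 2 to 5 at 8 h, while the level in FGF6 cells had a log2 difference of 0.06. For Ereg, Hbegf, Btc, and Errfi1 the log2 difference over this step was -0.58, -0.77, -0.60, and -0.60 in vehicle cells. In FGF6 cells it was -0.27, -0.10, -0.12, and -0.40, in the same order. For Egfr the sign of the FGF6 difference turned, from 0.44 at 4 h to -0.73 at 8 h. Of all genes, 30.6%, 45.1%, and 53.5% passed these 3 tests, in which 6, 6, and 5 of the 9 genes tested here did. The tests are built from the contrast that chose the genes, in the same libraries, so nothing is read from the difference.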

How the results depend on the processing

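Of 2773 log2 differences of the members recomputed under an alternative, none reversed after being called, 29 lost a call, and 26 gained one. Those of Erbb2 were the least stable. At 24 h its lower level with FGF6 was not called with DESeq2 (-0.09) or without vehicle replicate 2 at 24 h (-0.02), and at 4 h DESeq2 called it higher (0.10). Areg and Tgfa were left out where at least 10 counts in every library were required. With at least 2-fold required, fewer members were called. For the FGF6 effect there were 2, 2, and 3, in the order 8 against 4, 24 against 8, and 24 against 4 h. In the same order, 1, 1, and 0 were called in vehicle cells and 1, 2, and 3 in FGF6 cells. The pathway genes called fell to 5, 10, and 12 at 4, 8, and 24 h, from 38, 39, and 40. Those tested numbered 3, 11, 10, 16, and 6 in the lists, in the order described above. Of all genes, 11.3%, 18.3%, and 22.8% were called with 2-fold required, and 62.8%, 70.8%, and 73.8% without it. At an FDR under 0.25, 7 members were called in FGF6 cells at 8 against 4 h. With library sizes alone, 3 were called for the FGF6 effect at 24 against 4 h. Without division by exon length, the share of Areg was 0.772%, 0.364%, and 0.937% with vehicle and 5.36%, 6.38%, and 19.9% with FGF6 at 4, 8, and 24 h, and that of Ereg 64.8%, 61.7%, and 52.6% with FGF6. Leaving out 1 library gave no count that differed by over 1.5 times. Nothing states whether same-numbered libraries share a culture or batch. Their deviations, vehicle against FGF6 within a time, correlated at -0.0275 to 0.0486 over 9 pairs. Not every library correlated best with its own number, and these values do not settle whether the libraries were paired. With the replicate block 7, 7, and 7 members were called at 4, 8, and 24 h. The block changed the call of 1 gene, Erbb3 in vehicle cells at 24 against 8 h (edgeR adjusted p = 0.0334 in place of 0.052).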
